A study of Mus musculus with 8 samples.

Results

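The collagen chain genes are the genes that encode the alpha chains of the collagens, and they were compared here between LLC1 and MLE12, a pair of mouse lung tumour cell lines. They were taken as every row of the count table whose gene name consists of Col, a type number, the letter a and a chain number. This rule found 44 of the 43346 genes listed, among them 11 fibrillar chains, 8 chains of basement membranes, 9 FACIT chains (fibril-associated collagens with interrupted triple helices) and 16 chains of other types. Poly-A RNA of 4 LLC1 and 4 MLE12 libraries was sequenced as paired-end reads of 100 nt. LLC1 is an established line from a Lewis lung carcinoma, which arose in a C57BL mouse. MLE12 is an established epithelial line derived from a lung tumour in mice transgenic for the SV40 large T antigen, driven by the promoter of the surfactant protein C gene. Neither line had received any reagent, the source of both is given as ATCC, and cells were harvested near 80% confluence. Each group is therefore 1 cell line, and a difference between the groups is a difference between these lines, which also differ in origin and transforming event. Nothing in the labels ties the 4 libraries of each line to separate cultures. The p-values therefore measure the spread between libraries, which may be technical.

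A collagen molecule is a triple helix of 3 alpha chains, which in some types are copies of 1 chain and in others come from different genes in a set combination. Fibrillar collagens form the tensile fibres of connective tissue, while type IV collagen forms the sheet-like network under epithelia and around vessels. In lung, the network of the alveolar wall holds the widely made α1 and α2 chains of type IV together with the α3, α4 and α5 chains.

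The LLC1 libraries held 46.8 M to 55.3 M counts and the MLE12 libraries 48.6 M to 76.7 M (M, 1000000), so 3 counts correspond to between 0.0391 and 0.0641 CPM (counts per 1000000 counts of a library) before scaling. Levels below are CPM on library sizes scaled by the trimmed mean of M-values (TMM), and log2 fold changes give LLC1 relative to MLE12 (± SE) as fitted by edgeR (quasi-likelihood test), with p-values adjusted by Benjamini and Hochberg's method over the 18546 genes tested. Markers of lung epithelium, which check the MLE12 label, summed to 348 to 369 CPM in MLE12 and to 1.62 to 1.78 CPM in LLC1. Fibroblast markers summed to 312 to 348 CPM in MLE12 and to 12.7 to 15.5 CPM in LLC1, with Thy1, Tcf21 and Fap at 0 in every LLC1 library and Tcf21 at 0 in every MLE12 library. Of the 4 fibroblast markers tested, 3 were higher in MLE12, while Pdgfra was higher in LLC1 (10.2 against 0.202 CPM, log2 fold change 5.71 ± 0.17). Endothelial markers summed to 0.571 to 1.12 CPM in LLC1 and 3.44 to 4.07 CPM in MLE12, and leukocyte markers to 7.98 to 8.78 and 2.002 to 2.51 CPM. Of the leukocyte sum, Cd68 alone gave 8.37 CPM in LLC1 and 2.17 CPM in MLE12, while Ptprc, Cd3e and Emr1 were at 0 in every LLC1 library and Itgam had 2 counts there. The fibroblast marker Dcn, a matrix proteoglycan gene, alone reached 319 CPM in MLE12 (2.34 CPM in LLC1) and so made up most of the MLE12 sum. No other fibroblast marker passed 5.56 CPM in MLE12, the level of Pdgfrb (1.61 CPM in LLC1). That is below the 10.2 CPM of Pdgfra in LLC1. In MLE12 Fap was at 0.260, Lum at 0.218 and Thy1 at 0.0223 CPM. Fibroblasts are a main source of Col1a1, Col1a2, Col3a1 and Col12a1, of which Col3a1 was higher in LLC1 and the others in MLE12. The part of the fibroblast markers in the collagen results was not tested. In RNA from whole cultures, fewer cells that express a gene and less RNA per cell cannot be told apart.

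The lines shared Col4a1 and Col4a2, abundant in both, and differed in most of the other collagen genes of high level. LLC1 had Col3a1, Col5a1 and Col18a1 at high levels, and MLE12 had Col4a3, Col4a4, Col4a5 and Col12a1. Each of these was at a low level in the opposite line. Of the 44 genes, 34 had enough counts to be tested, and 12 were higher in LLC1, 20 were higher in MLE12 and 2 were not called. That is 94.1% of those tested, against 81.6% of all genes, of which 40.7% were higher in LLC1 and 40.9% in MLE12. Since most genes differ between these lines, a test against a fold change of 2 (glmTreat) was also used. By it 9 collagen genes were higher in LLC1 and 16 in MLE12, which is 73.5% against 33.7% of all genes (16.7% higher in LLC1 and 16.9% in MLE12). The median size of the log2 fold change was 2.40 over the 34 genes and 0.74 over all genes tested. The median itself was −0.78, against 0.02 over all genes. A gene could enter the test through its level in one line alone, which favours large differences, so these shares are a description. Among the 14 collagen genes with a mean of at least 10 CPM over all 8 libraries, 11 passed the 2-fold test (78.6%), 5 of them higher in LLC1 and 6 in MLE12, against 24.8% of all genes at that level (11.6% higher in LLC1 and 13.2% in MLE12). All 14 were called by the test of any difference, against 87.1% of such genes (40.5% higher in LLC1 and 46.5% in MLE12). A mean over both lines also admits genes that are high in one line alone, such as Col3a1 and Col4a3, so it does not remove this limit.

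**Figure D1:**
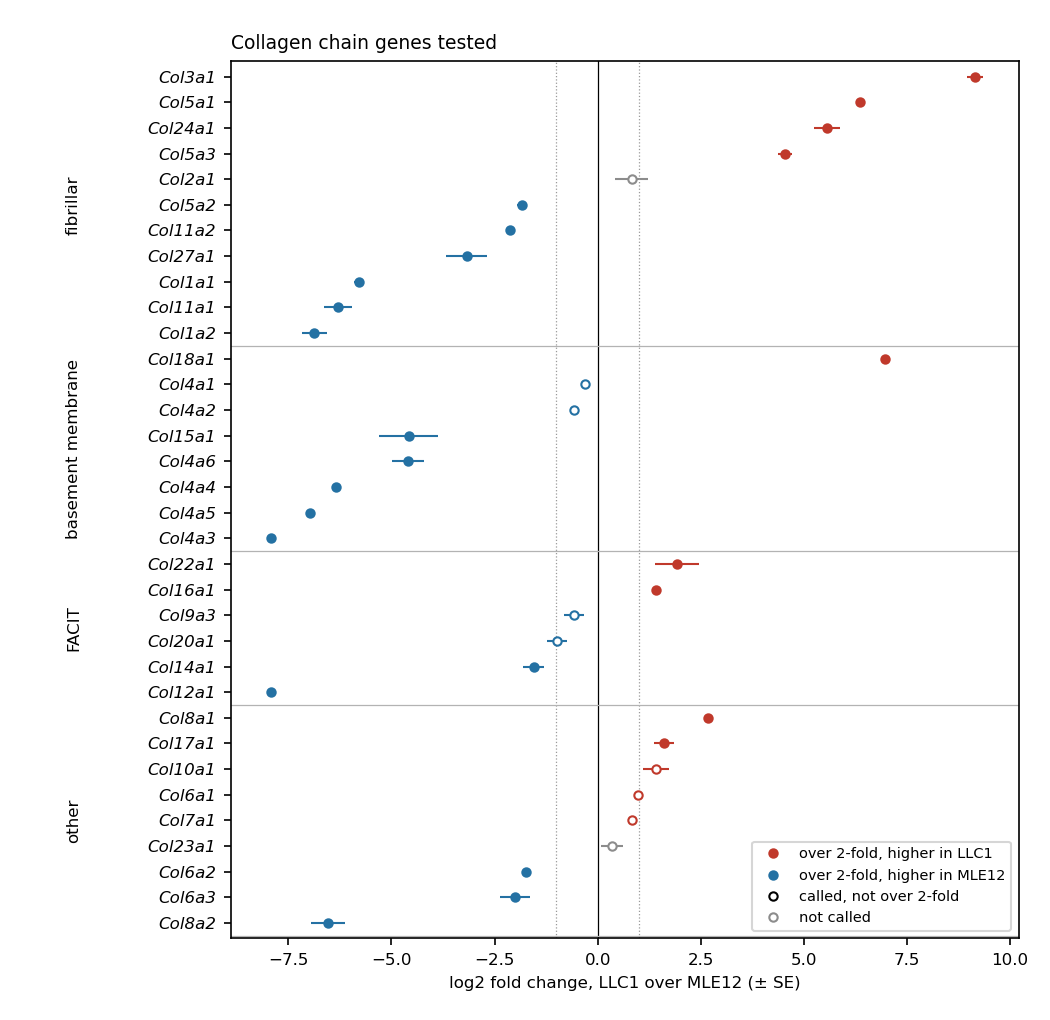
Log2 fold change, LLC1 over MLE12, of the 34 collagen chain genes tested, by class. Points are estimates and bars are ± SE from edgeR, filled points passed the test against 2-fold, and dotted lines mark a fold change of 2; Col3a1 lies farthest to the right at 9.15, with Col12a1 at −7.93 and Col4a3 at −7.92 farthest to the left.

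The fibrillar class split in both directions, as 4 of 11 genes stood higher in LLC1, 6 in MLE12 and Col2a1 was not called. All 10 that were called also passed the test against 2-fold, and the class median was −1.85. The calls are 90.9% of the class in each test, against 81.6% and 33.7% of all genes. Col3a1 (ENSMUSG00000026043, chr1:45311538-45349706, build mm10), which encodes the single chain of type III collagen, had the largest fold change of the 34 genes. Its levels were 1402, 1462, 1537 and 1510.3 CPM in the LLC1 libraries and 2.03, 2.27, 2.37 and 4.14 CPM in the MLE12 libraries. The lines did not overlap, and MLE12 library 4 was the highest of its line. The means were 1478 ± 59.1 (SD, n = 4) and 2.70 ± 0.969 CPM (SD, n = 4), a log2 fold change of 9.15 ± 0.19 (adjusted p = 2.5e-10) and a fold of 567. Without MLE12 library 4 the log2 fold change was 9.37. The ratio of library 4 to the mean of the other MLE12 libraries was 1.86 for Col3a1, and its median was 1.45 over 36 genes, picked after the values were seen, with at least 100 CPM in LLC1 and under 1% of that level in MLE12 libraries 1 to 3. Of these 36 genes, 8 had a ratio at least as high as that of Col3a1, itself included. MLE12 libraries 1 to 3 also form the denominator of this ratio, so picking genes low in them favours high ratios. The 36 genes are therefore no neutral background for Col3a1.

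Col5a1 (ENSMUSG00000026837, chr2:27886425-28039514) encodes the α1 chain of type V collagen, which lies inside fibrils and sets their diameter. It stood at 146, 156, 161 and 162 CPM in LLC1 and at 1.84, 2.11, 1.80 and 1.86 CPM in MLE12. Every LLC1 library was far above every MLE12 library, and the log2 fold change was 6.36 ± 0.07 (adjusted p = 3.0e-23). It overlaps Gm13372 and 2810430I11Rik on the opposite strand, with 1261 and 665 counts in LLC1 against 30972 for Col5a1. Col5a3, which encodes a further type V chain, was higher in LLC1 as well, at 7.44 ± 0.4997 against 0.308 ± 0.0924 CPM (SD, n = 4 per line; log2 fold change 4.54 ± 0.17). Col5a2 (ENSMUSG00000026042, chr1:45374321-45503282), whose product joins the α1 chain in the common type V trimer, went the opposite way. Its levels were 4.51, 5.20, 5.75 and 7.23 CPM in LLC1 and 19.6, 21.6, 20.9 and 19.7 CPM in MLE12. The lines were separate, with a wider relative spread in LLC1, and the log2 fold change was −1.85 ± 0.11 (adjusted p = 1.5e-11).

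The DNA just before the annotated starts of Col3a1 and Col5a1 is shown because these were the called fibrillar genes of highest level in LLC1. The sequences are those of RefSeq on GRCm38.p6, the assembly of mm10. Each is the 250 bases before the start, chr1:45311288-45311537 and chr2:27886175-27886424, both on the plus strand and written 5′ to 3′. Capitals mark matches to motifs searched on both strands, which were CCAAT, the GC box (GGGCGG), the TATA box (TATAAA) and the AP-1 motif (TGANTCA).
Col3a1: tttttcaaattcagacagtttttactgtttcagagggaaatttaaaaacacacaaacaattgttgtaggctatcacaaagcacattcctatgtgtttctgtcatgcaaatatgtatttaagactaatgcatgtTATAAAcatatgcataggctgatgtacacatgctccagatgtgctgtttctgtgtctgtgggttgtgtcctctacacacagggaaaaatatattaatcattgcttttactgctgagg
Col5a1: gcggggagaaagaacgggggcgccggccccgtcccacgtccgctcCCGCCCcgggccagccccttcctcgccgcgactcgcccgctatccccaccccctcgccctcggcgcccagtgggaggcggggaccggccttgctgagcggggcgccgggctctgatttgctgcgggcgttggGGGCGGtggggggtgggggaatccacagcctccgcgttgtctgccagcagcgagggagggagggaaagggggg
The Col3a1 stretch holds 35.2% G and C and a TATA box at bases 134 to 139. The Col5a1 stretch holds 76.4% G and C, no TATA box and 2 GC boxes, at bases 46 to 51 on the reverse strand and at bases 178 to 183. Over 32851 mouse promoters of the same length, 12.4% held a TATA box and 32.7% a GC box. Of the 44 collagen genes, 35 matched a promoter entry. Of these, 21 (60.0%) held a GC box, 5 (14.3%) a TATA box, 12 (34.3%) CCAAT and 1 (2.86%) the AP-1 motif, against 33.8% and 6.75% of all promoters for the last pair. The collagen promoters were also richer in G and C, with a median of 59.6% against 52.4% over all promoters, and the part of this in the GC box share was not tested. The genes without an entry were Col1a1, Col2a1, Col4a3, Col5a2, Col9a3, Col12a1, Col14a1, Col22a1 and Col26a1. A match describes the letters in this window only.

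Col1a1 (ENSMUSG00000001506, chr11:94936224-94953042) and Col1a2 encode the chains of type I collagen, the main fibre of bone, skin and tendon. Col1a1 was at 0.300, 0.337, 0.310 and 0.304 CPM in LLC1 and at 16.9, 18.2, 17.7 and 17.0 CPM in MLE12. All MLE12 libraries were higher (log2 fold change −5.79 ± 0.11, adjusted p = 2.3e-19). Col1a2 followed, at 0, 0.0374, 0.103 and 0.0571 CPM in LLC1, which is 10 counts in all, and at 4.81, 6.42, 7.66 and 5.66 CPM in MLE12 (log2 fold change −6.87 ± 0.31, adjusted p = 1.3e-13). LLC1 thus had the type III gene at 1478 CPM on average and both type I genes at 0.337 CPM or less in every library.

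Type XI collagen is the partner of type II in cartilage fibrils. Col11a2 (ENSMUSG00000024330, chr17:34039437-34066685) was at 2.63, 3.499, 3.51 and 3.52 CPM in LLC1 and at 16.3, 13.5, 14.6 and 12.8 CPM in MLE12. The lines did not overlap, LLC1 library 1 was below the other LLC1 libraries, and the log2 fold change was −2.12 ± 0.11 (adjusted p = 5.1e-13). Col11a1 was higher in MLE12 too, at 2.54 ± 0.311 CPM against 0.0312 ± 0.0211 CPM in LLC1 (SD, n = 4 per line), which is 6 counts (−6.30 ± 0.34). Col24a1 was higher in LLC1 (1.95 against 0.0391 CPM, log2 fold change 5.57 ± 0.32) and Col27a1 in MLE12 (0.473 against 0.0479 CPM, −3.18 ± 0.50). Col2a1, the cartilage collagen, was at 0.416 to 0.558 CPM in LLC1 and at 0.119 to 0.560 CPM in MLE12. The lines overlapped, since MLE12 library 4 lay above all LLC1 libraries, and the log2 fold change of 0.82 ± 0.40 did not pass (adjusted p = 0.063). Without that library it was called (1.31, adjusted p = 0.0035), as it was with upper-quartile scaling (0.88, adjusted p = 0.048) and with limma-voom (1.05, adjusted p = 0.017).

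In the basement membrane class 7 of 8 genes were higher in MLE12 and 1, Col18a1, was higher in LLC1. By the 2-fold test 5 were higher in MLE12 and 1 in LLC1, and the median log2 fold change was −4.59. These calls are 100% and 75% of the class, against 81.6% and 33.7% of all genes. The 6 type IV genes lie in 3 pairs that are transcribed away from each other, and the members of a pair had the same direction in each case. Col4a1 (ENSMUSG00000031502, chr8:11198423-11312826) and Col4a2 (ENSMUSG00000031503, chr8:11312805-11449287) encode the α1 and α2 chains found in nearly all basement membranes. Col4a1 was at 726, 733, 854 and 801 CPM in LLC1 and at 955, 1035, 996 and 853 CPM in MLE12. LLC1 library 3 lay just above MLE12 library 4, so the lines overlapped, and the log2 fold change was −0.30 ± 0.06 (adjusted p = 2.3e-04). Col4a2 was at 445, 457, 500.3 and 475 CPM in LLC1 and at 682, 739, 744 and 646 CPM in MLE12. These did not overlap, and the log2 fold change was −0.58 ± 0.05 (adjusted p = 3.6e-09). Neither gene passed the test against 2-fold.

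Col4a3 and Col4a4 encode chains that, with the α5 chain, make up the network of alveolar and glomerular basement membranes. Col4a3 (ENSMUSG00000079465, chr1:82586921-82722059) was at 0.994, 0.674, 0.909 and 0.856 CPM in LLC1 and at 207, 216.5, 217 and 188 CPM in MLE12. The LLC1 level was 0.414% of the MLE12 level (log2 fold change −7.92 ± 0.08, adjusted p = 4.3e-23). Col4a3 shares 563 exon bases with C430014B12Rik on the opposite strand, which had 1683 counts in LLC1 against 168 for Col4a3, and 5484 against 58820 in MLE12. The strand setting of the counting is not given, so reads of these overlapping exons cannot be told apart. Col4a4 (ENSMUSG00000067158, chr1:82448423-82586849) was at 5.22, 5.39, 5.75 and 4.19 CPM in LLC1 and at 409, 440.4, 426 and 394 CPM in MLE12. The lines stood far apart (log2 fold change −6.35 ± 0.08, adjusted p = 7.0e-22).

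Col4a5 (ENSMUSG00000031274, chrX:141475385-141689234) was at 2.15, 2.84, 3.25 and 3.08 CPM in LLC1 and at 360.3, 389.7, 367 and 322 CPM in MLE12. All MLE12 libraries were higher (log2 fold change −6.98 ± 0.09, adjusted p = 1.4e-19). Its neighbour Col4a6 (ENSMUSG00000031273, chrX:141165403-141474076) went the same way at a far lower level, with 0.0462, 0.206, 0 and 0.0951 CPM in LLC1 and 2.32, 2.40, 2.58 and 1.68 CPM in MLE12. The log2 fold change of Col4a6 was −4.61 ± 0.39 (adjusted p = 3.9e-09), from 18 counts in LLC1 and 647 in MLE12.

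The DNA between the starts of these paired genes is shown because the members of each pair start close to each other and had the same direction. The first line is the whole gap of 71 bases between the Col4a4 and Col4a3 starts, chr1:82586850-82586920, written on the minus strand so that it leads into Col4a4. The others are the 250 bases before Col4a6 (chrX:141474077-141474326, minus strand) and the 216 bases of the Col4a5 entry that lie before its start in the count table (chrX:141475169-141475384, plus strand), from the gap of 1308 bases between them. All are RefSeq sequence on GRCm38.p6, 5′ to 3′, with capitals as before.
Col4a4 and Col4a3: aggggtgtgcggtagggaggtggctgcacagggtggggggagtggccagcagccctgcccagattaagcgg
Col4a6: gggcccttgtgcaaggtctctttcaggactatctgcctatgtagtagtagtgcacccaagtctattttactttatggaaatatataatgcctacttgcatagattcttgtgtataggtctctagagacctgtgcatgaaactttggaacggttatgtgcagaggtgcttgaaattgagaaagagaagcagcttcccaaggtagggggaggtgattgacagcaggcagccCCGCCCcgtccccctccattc
Col4a5: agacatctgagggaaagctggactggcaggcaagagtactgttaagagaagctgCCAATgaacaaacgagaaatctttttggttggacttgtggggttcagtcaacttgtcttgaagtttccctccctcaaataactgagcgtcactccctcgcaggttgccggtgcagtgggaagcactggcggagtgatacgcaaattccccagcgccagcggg
The gap between Col4a4 and Col4a3 is 69.0% G and C and held none of the motifs, which 71-base stretches of all promoters held in 13.3% (CCAAT), 20.7% (GC box), 4.41% (TATA box) and 1.86% (AP-1) of cases. The Col4a6 stretch (47.6% G and C) held 1 GC box, on the reverse strand at bases 230 to 235. The Col4a5 stretch (52.3% G and C) held 1 CCAAT at bases 55 to 59, found in 30.8% of all promoter stretches of that length. RefSeq places the Col4a5 start further downstream, and the 250 bases before that start also held a GC box, which the counts over all collagen promoters include. The annotated starts of Col4a1 and Col4a2 overlap by 22 bases, and no stretch of theirs is printed.

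Type XV and type XVIII collagens carry heparan or chondroitin sulfate chains and anchor basement membranes to the stroma, and the C-terminal part of type XVIII is endostatin. Col18a1 (ENSMUSG00000001435, chr10:77052178-77166548) was at 789, 822, 899.8 and 874 CPM in LLC1 and at 6.07, 7.48, 6.48 and 6.88 CPM in MLE12. Its direction was opposite to that of the type IV genes in every library, with means of 846 ± 50.1 and 6.73 ± 0.600 CPM (SD, n = 4 per line) and a log2 fold change of 6.98 ± 0.07 (adjusted p = 4.0e-23). Col15a1 had 2 counts in LLC1, both in library 4, and 81 counts in MLE12, where its mean was 0.291 CPM. The ratio of MLE12 to LLC1 was 30.4, with a 95% interval of 8.16 to 256 that covers counting error only.

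**Figure D2:**
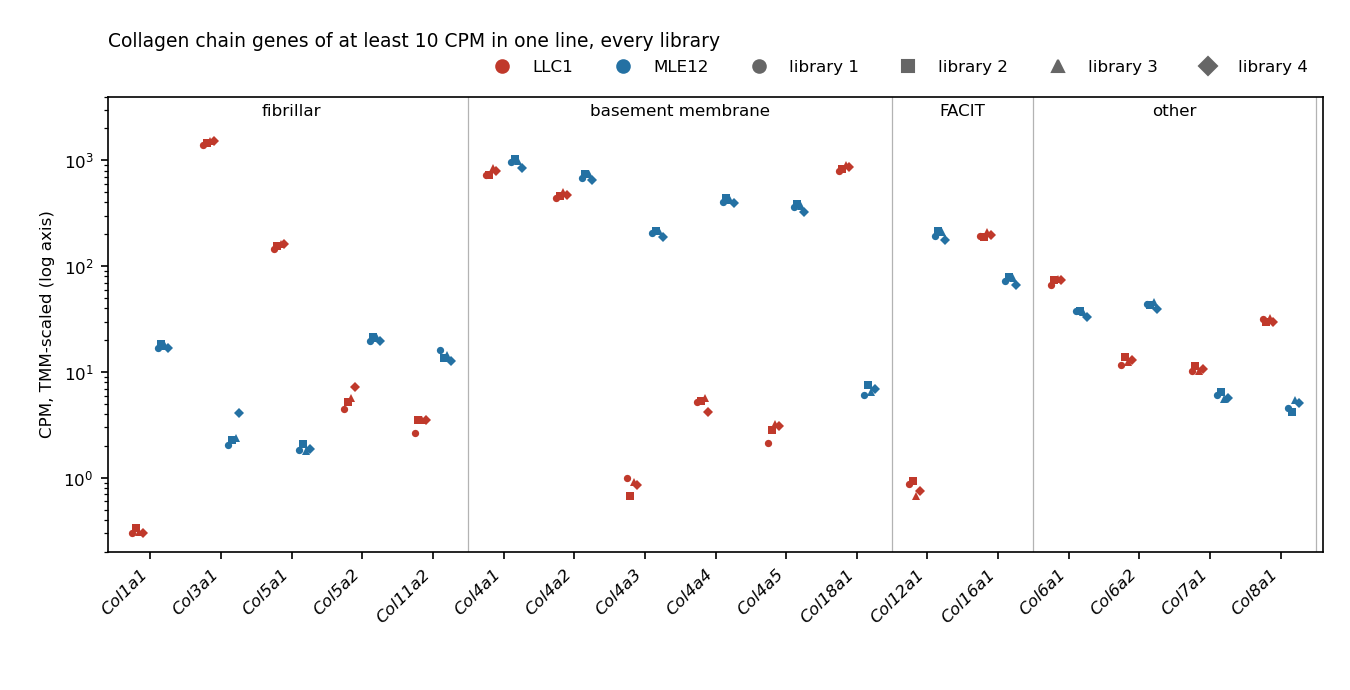
Level in CPM (log axis) of the 17 collagen chain genes with a mean of at least 10 CPM in one line, for every library, by class; colour gives the line and the symbol the library number. The lines overlap for Col4a1, where LLC1 library 3 is at 854 and MLE12 library 4 at 853 CPM, and are separate for the others shown. The share of all genes of such a level with separate lines was not computed.

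Of the 9 FACIT genes, whose products sit on the surface of fibrils, 6 could be tested. The test called 2 of them higher in LLC1 and 4 higher in MLE12 (median −0.77), of which 2 and 2 passed the test against 2-fold. That is 100% and 66.7% of those tested, against 81.6% and 33.7% of all genes. Col12a1 (ENSMUSG00000032332, chr9:79598991-79718831), a fibril-surface collagen of dense connective tissue, was at 0.878, 0.935, 0.682 and 0.761 CPM in LLC1 and at 192, 215, 212 and 177 CPM in MLE12. The LLC1 level was 0.410% of the MLE12 level (log2 fold change −7.93 ± 0.09, adjusted p = 4.3e-22). Col16a1 (ENSMUSG00000040690, chr4:130047840-130099283) was at 192, 188, 208 and 197 CPM in LLC1 and at 72.8, 78.5, 77.8 and 66.4 CPM in MLE12. It was well expressed in both lines without overlap, at a log2 fold change of 1.41 ± 0.05 and an adjusted p of 6.0e-15. The rest were near or below 1.504 CPM. Col14a1 was at 0.509 CPM in LLC1 and at 1.504 CPM in MLE12 (−1.55 ± 0.25), and Col22a1 at 0.260 and 0.0612 CPM (1.93 ± 0.54). Col20a1, at 0.731 and 1.43 CPM, shares 79 exon bases with 9230112E08Rik, a gene on the same strand that had more counts in both lines. Col9a3 was called by a narrow margin (−0.57 ± 0.24, adjusted p = 0.034) with overlapping libraries, and was not called with upper-quartile scaling (adjusted p = 0.055), with a replicate block (0.053), or without LLC1 library 2 (0.098), LLC1 library 3 (0.070), MLE12 library 1 (0.11) or MLE12 library 2 (0.092). Col9a1 had no count in any library, Col19a1 had 1 count in each line, and Col9a2 had 12 counts in LLC1 and 14 in MLE12.

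Of the 16 other genes 9 could be tested, and 5 were called higher in LLC1, 3 higher in MLE12 and Col23a1 in neither (0.36 ± 0.27, adjusted p = 0.23). The median was 0.83, and 2 and 3 passed the test against 2-fold. Of those tested 88.9% were called and 55.6% passed 2-fold, against 81.6% and 33.7% of all genes. Type VI collagen forms beaded microfilaments from the α1 and α2 chains and a further, larger chain, and its genes did not move together. Col6a1 (ENSMUSG00000001119, chr10:76708792-76726168) was at 66.5, 73.4, 75.9 and 73.9 CPM in LLC1 and at 38.1, 37.8, 36.8 and 33.4 CPM in MLE12. LLC1 was higher in every library (log2 fold change 0.99 ± 0.05, adjusted p = 2.0e-12). The fold of Col6a1 was 1.98, so it did not pass the test against 2-fold. Col6a2 (ENSMUSG00000020241, chr10:76595762-76623630) was at 11.6, 14.0, 12.5 and 13.1 CPM in LLC1 and at 43.8, 42.7, 45.4 and 39.5 CPM in MLE12. Here MLE12 was higher in every library (log2 fold change −1.74 ± 0.06, adjusted p = 4.6e-15). Col6a3 was low in both, at 0.133 ± 0.0448 CPM in LLC1 and at 0.529 ± 0.125 CPM in MLE12 (SD, n = 4 per line; −1.998 ± 0.36).

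Type VIII collagen forms hexagonal networks under endothelia and in the cornea. Col8a1 (ENSMUSG00000068196, chr16:57624258-57754737) was at 31.9, 29.8, 32.3 and 29.7 CPM in LLC1 and at 4.62, 4.22, 5.48 and 5.08 CPM in MLE12. The lines were separate (log2 fold change 2.67 ± 0.08, adjusted p = 1.2e-16). Col8a2 had the opposite direction, with 4 counts in LLC1 against 592 in MLE12 (2.06 CPM; −6.54 ± 0.40). Col7a1 (ENSMUSG00000025650, chr9:108953586-108984875), the anchoring fibril collagen of skin, was at 10.2, 11.4, 10.4 and 10.7 CPM in LLC1 and at 6.02, 6.51, 5.61 and 5.74 CPM in MLE12. It was higher in all LLC1 libraries (log2 fold change 0.83 ± 0.08, adjusted p = 2.3e-08), but did not pass the test against 2-fold. Col17a1, the hemidesmosome collagen of epithelia, was at 1.75 CPM in LLC1 and at 0.569 CPM in MLE12 (1.61 ± 0.23), and Col10a1, the collagen of hypertrophic cartilage, at 0.889 and 0.325 CPM (1.41 ± 0.32, not past 2-fold). Col10a1 shares 18 exon bases with Nt5dc1 on the opposite strand, which had 4413 counts in LLC1 and 3946 in MLE12, against 174 and 95 for Col10a1. The genes not tested had few counts in both lines, namely 10 in LLC1 and 0 in MLE12 for Col6a4, 1 and 4 for Col6a5, 8 and 7 for Col6a6, 2 and 1 for Col13a1, 7 and 23 for Col25a1, 4 and 13 for Col26a1, and 4 and 50 for Col28a1.

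Levels of different genes were compared per length, as CPM per kb of the length that the authors deposited. The summed collagen level was 534 ± 28.2 CPM per kb in LLC1 and 411 ± 28.6 in MLE12 (SD, n = 4 per line), and collagen genes took 0.356% to 0.421% of all counts in LLC1 and 0.289% to 0.342% in MLE12. Fibrillar chains made up 32.2% ± 0.530 of the summed level in LLC1 and 2.02% ± 0.0952 in MLE12. Basement membrane chains made up 57.4% ± 0.681 and 88.1% ± 0.162. The FACIT share was 5.55% ± 0.144 in LLC1 and 6.04% ± 0.0843 in MLE12, and that of the other types 4.86% ± 0.148 and 3.87% ± 0.147 (SD, n = 4 throughout). In LLC1 the order began with Col3a1 (28.2% of the summed level), Col18a1 (22.6%), Col4a1 (21.4%) and Col4a2 (13.3%), which together held 85.5%. In MLE12 it began with Col4a1 (34.2%), Col4a2 (25.8%), Col4a5 (13.0%), Col4a4 (9.58%) and Col4a3 (5.06%), which held 87.7%. Within type IV, the α1 and α2 genes held 99.5% ± 0.0333 of the level per length in LLC1 and 68.4% ± 0.334 in MLE12. Col4a3, Col4a4 and Col4a5 together held 0.533% ± 0.0311 in LLC1 and 31.5% ± 0.341 in MLE12. These shares describe RNA, not the protein that the cells deposit.

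**Figure D3:**
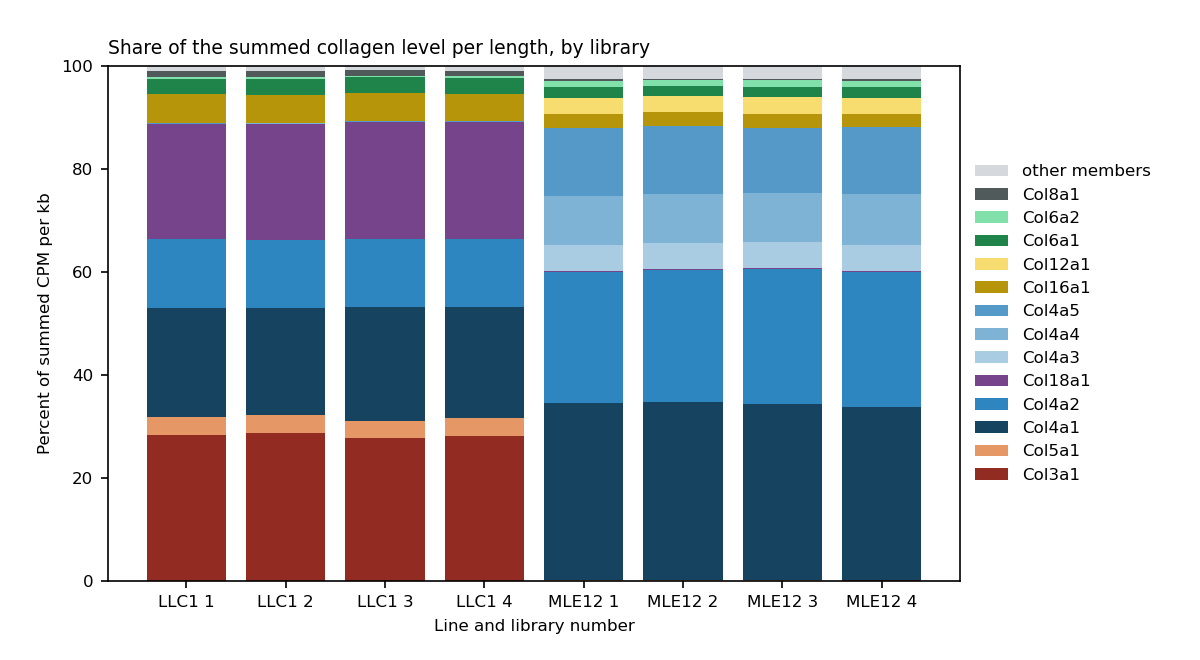
Percent of the summed collagen level (CPM per kb) taken by single genes in each library. Col3a1 and Col18a1 fill 28.2% and 22.6% in LLC1 on average, while in MLE12 the space is taken by Col4a3, Col4a4 and Col4a5 beside larger shares of Col4a1 and Col4a2.

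Since chains are joined in set combinations, ratios between chain genes were computed within each library for the 5 of 10 listed pairs with at least 10 counts per gene in every library. The ratio of Col4a1 to Col4a2 per length was 1.61 ± 0.0462 in LLC1 and 1.33 ± 0.0402 in MLE12, a small shift between abundant partners. That of Col4a3 to Col4a4 was 0.180 ± 0.0377 in LLC1 and 0.528 ± 0.0153 in MLE12, so the α4 gene was the higher of the pair in both lines. For type V, Col5a1 to Col5a2 was 31.9 ± 4.78 in LLC1 and 0.105 ± 0.00535 in MLE12, which inverts which gene of the pair was in excess. Col6a1 to Col6a2 was 10.8 ± 0.642 in LLC1 and 1.62 ± 0.0622 in MLE12 (SD, n = 4 per line for each pair). By CPM without length Col6a2 was the higher in MLE12 (42.9 against 36.5), so which gene was in excess there depends on the length used. For Col3a1 and Col5a2, neighbours on chromosome 1, the ratio was 261 ± 42.0 in LLC1 and 0.130 ± 0.0506 in MLE12. In each of the 5 pairs the libraries of the lines did not overlap. The exact two-sided permutation test gave p = 0.029 for each, also after Benjamini-Hochberg adjustment over the 5, which is the smallest value that 4 libraries against 4 can give (70 arrangements). For Col5a1 to Col5a2, Col6a1 to Col6a2 and Col3a1 to Col5a2 this value was fixed by the levels of the single genes. Both genes of each were already separate between the lines, in opposite directions, so the test adds nothing there.

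**Figure D4:**
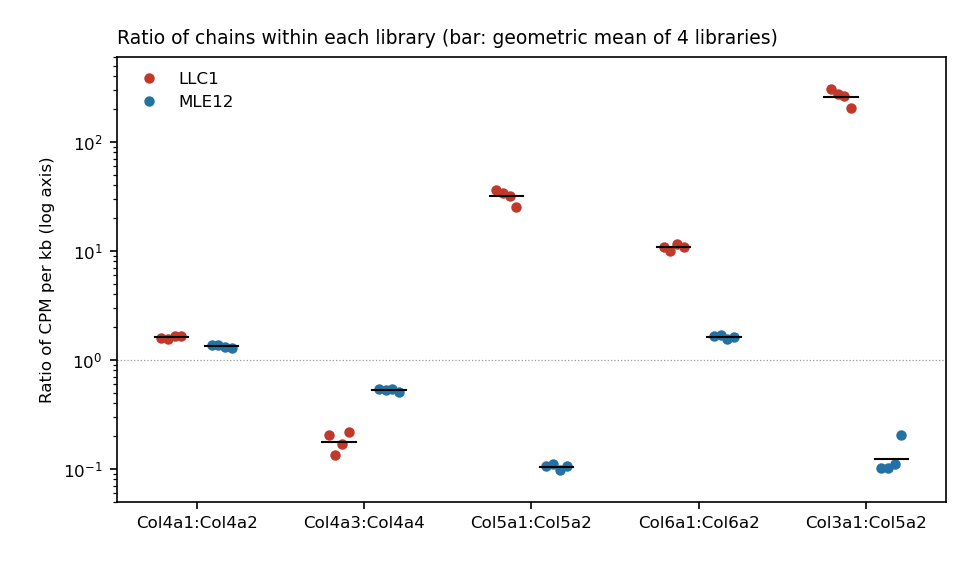
Ratio of CPM per kb (log axis) between chains within each library; points are libraries, bars are geometric means of 4 libraries and the dotted line marks equal levels. Col5a1 to Col5a2 and Col3a1 to Col5a2 lie above 1 in all LLC1 libraries and below 1 in all MLE12 libraries.

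Position on the chromosome was set beside direction for the 8 pairs of collagen genes within 150 kb of each other, of which 5 had both genes called. The 3 pairs that start head to head, Col4a1 with Col4a2, Col4a4 with Col4a3 and Col4a6 with Col4a5, had both genes higher in MLE12. Col3a1 and Col5a2 lie tail to tail 24614 bases apart and had opposite directions (log2 fold changes 9.15 and −1.85). Col6a2 and Col6a1 lie on the same strand 85161 bases apart and were also opposite (−1.74 and 0.99). With 5 pairs this is a description only.

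Genes that make, bind and cut collagen were called in both directions, as were genes in general (40.7% higher in LLC1 and 40.9% in MLE12). Of 30 listed genes of collagen biosynthesis 26 were tested, 11 higher in LLC1 and 13 in MLE12, which is 92.3% against 81.6% of all genes. By the 2-fold test 9 and 6 passed (57.7% against 33.7%), with a median log2 fold change of −0.10. Adamts14, a protease that removes the N-terminal propeptide of fibrillar procollagens, was at 121 ± 8.003 CPM in LLC1 and at 1.22 ± 0.0815 CPM in MLE12 (6.63 ± 0.07), the same direction as Col3a1 and Col5a1. The lysyl hydroxylase Plod2 (1.83 ± 0.05) and the prolyl 3-hydroxylase Leprel2 (2.03 ± 0.07) were higher in LLC1. In MLE12 Leprel1 (−4.04 ± 0.06), the collagen chaperone Fkbp10 (−1.98 ± 0.05) and the cross-linking oxidase Loxl2, at 16.8 ± 0.620 CPM in LLC1 and at 245 ± 17.1 CPM in MLE12 (−3.86 ± 0.06), were higher.

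Of 15 collagen receptors 12 were tested, with 5 higher in each line, a share of 83.3% near the 81.6% of all genes. By the 2-fold test 4 passed in each line (66.7% against 33.7%), and the median was 0.04. Ddr2, a receptor tyrosine kinase for fibrillar collagen, was at 581 ± 21.4 CPM in LLC1 and at 86.9 ± 6.21 CPM in MLE12 (2.74 ± 0.05). Antxr2 (2.62 ± 0.05) and Gpr126 (1.45 ± 0.05), both receptors that bind type IV collagen, were also higher in LLC1. Antxr1 (−2.07 ± 0.05), the endocytic receptor Mrc2 (−1.85 ± 0.05) and the integrin subunit Itgb1 (−1.46 ± 0.04) were higher in MLE12. Of 14 listed genes of collagen degradation 10 were tested, 4 higher in LLC1 and 5 in MLE12, which is 90% against 81.6% of all genes. By the 2-fold test 3 and 5 passed (80% against 33.7%), and the median was −0.76. This list also holds inhibitors of degradation (the Timp genes), called in both directions, so the counts give no direction of degradation. The membrane collagenase Mmp14 was higher in LLC1 (172 ± 2.07 against 26.0 ± 0.740 CPM; 2.72 ± 0.04). Mmp2, the gelatinase that its product activates, was higher in MLE12 (−6.66 ± 0.11), as was the inhibitor Timp3, at 1.64 ± 0.459 against 342 ± 8.51 CPM (−7.71 ± 0.11).

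Among 15 partners of collagen in basement membranes 13 were tested, 4 higher in LLC1 and 8 in MLE12 (92.3%, against 81.6% of all genes). By the 2-fold test 2 and 7 passed (69.2% against 33.7%), and the median was −1.39. The nidogens, which bridge laminin and type IV collagen, were exchanged between the lines. Nid1 was at 452 ± 16.4 CPM in LLC1 and at 1.23 ± 0.158 CPM in MLE12 (8.53 ± 0.07), whereas Nid2 was at 0.536 ± 0.206 and 89.99 ± 6.06 CPM (−7.41 ± 0.12; SD, n = 4 per line throughout). Of the laminin β chain genes, Lamb1 was higher in LLC1 (3.19 ± 0.05) and Lamb2 was higher in MLE12 (−3.09 ± 0.06). The perlecan gene Hspg2 was slightly higher in LLC1 (0.30 ± 0.09, adjusted p = 0.0081).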

How the data were processed

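Per the labels' protocols, poly-A RNA of 8 libraries was fragmented, copied with random primers and sequenced as paired-end reads of 100 nt. The authors deposited raw counts per gene for 43346 mouse genes, each with its position and length. The submitters' processing notes name the build mm10 and the tools edgeR, featureCounts, TopHat2 and CASAVA. Their versions and roles, the annotation release, the strand setting, whether both mates were counted and the treatment of reads with several alignments are not given in the sources used here. The length that the authors deposited (no other unit, bases) is headed as coding, but it exceeded the coding bases of GENCODE M21 for all 44 collagen genes and equalled the exon bases for 31.

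Libraries of a line were not duplicates, since the chi-square per degree of freedom between their counts was 6.35 to 53.1. Counts were filtered with filterByExpr, scaled by TMM and tested in R 4.3.3 with edgeR 4.0.16 (robust glmQLFit, glmQLFTest, and glmTreat against 2-fold) over 18546 genes, Benjamini-Hochberg adjusted and called at 0.05. DESeq2 1.42.0 and limma 3.58.1 were alternatives. On simulated counts for this comparison (18546 genes), 44 of 50 genes changed 1.5-fold and all 50 changed 2-fold were called. So were 9 of 16984 unchanged genes. Most genes were left unchanged there, whereas 81.6% of genes were called in the data. The changed genes were drawn from those above 1 CPM in MLE12, so the recovery does not cover lower genes such as Col2a1 and Col23a1. Recovery with that many differing genes, or by gene level, was not tested. All collagen genes may be named, with full values for those of at least 10 CPM in a line, and up to 3 genes per direction of each partner list with at least 10 CPM, of which 1 is not reported here. The members, classes and lists were chosen with earlier results of these data known, and no list was tested as a set.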

Additional observations from a re-analysis of the deposited data

Results flagged for a closer look

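Of 68 groups of 4 libraries checked, 1 for each line and tested collagen gene, 4 held a library that stood apart from the other 3 of its line beyond the 95% limit of Dixon's test; chance flags about 1 in 20 groups. Col3a1 in MLE12 library 4 was at 4.14 CPM, with the other MLE12 libraries at 2.03 to 2.37 CPM. Col15a1 in LLC1 library 4 was at 0.0381 CPM, which is 2 counts, with no count in the other LLC1 libraries. Col27a1 in MLE12 library 2 was at 0.358 CPM, with the others at 0.495 to 0.520 CPM. Col11a2 in LLC1 library 1 was at 2.63 CPM, with the others at 3.499 to 3.52 CPM. In all 4 genes every library of the higher line stayed above every library of the lower line. The share of all genes with such separate lines was not computed.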

How the results depend on the processing

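The 17 collagen genes with full values kept direction and call under all 17 refits across genes. Counts of called collagen genes ran from 10 to 13 in LLC1 and from 16 to 21 in MLE12. The collagen genes tested ran from 26 (at least 1 CPM in 4 libraries) to 43 (no filter on low counts). The share of all genes called was 85.8% and 59.3% in these settings, so the counts do not compare directly. With type IV alone, the basement membrane class had 0 genes higher in LLC1 and a median of −5.48, and leaving out single libraries moved the class median between −5.44 and −4.23. With no filter on low counts the medians were −0.18 for FACIT and 0.46 for other types. With at least 1 CPM in 4 libraries, FACIT had 1 gene higher in LLC1 and a median of −1.21. Exon lengths of GENCODE M21 gave a fibrillar share of 32.9% and an other share of 4.57% in LLC1, and a basement membrane share of 87.8% and a FACIT share of 6.22% in MLE12. These exon lengths equalled the deposited length for 31 of the 44 genes, among them Col3a1 and Col18a1, so only the other genes changed length. Coding bases are fewer by unlike amounts (Col3a1 4392 of 9816, Col18a1 5404 of 7021), and shares per coding length were not computed. The cause of the shifts was not tested beyond the fewer or different genes and lengths that these settings use. Alternatives chosen after seeing the data left 5 and 6 genes past 2-fold at 10 CPM or more, and 9 and 15 without Col4a3 and Col20a1, which share at least 50 exon bases with a gene of higher counts in at least 1 line. The same library numbers did not pair (r of −0.04, 0.15, 0.13 and −0.15), and a replicate block gave 12 and 19 called genes, against 12 and 20. The calls of Col9a3 and Col2a1 changed with the setting, and no other tested collagen gene changed its call where it was tested. In 1 library a level near 0.0641 CPM (3 counts in the shallowest library, unscaled) rests on few counts, so fold changes of genes this low in a line, such as Col11a1, Col24a1 and Col27a1, are imprecise, and n = 4 libraries of 1 line each limits every comparison.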
